A study of Mus musculus with 2 samples.

Results

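The CC chemokines that draw monocytes and other myeloid cells into tissue, and 2 receptors that read them, were followed by cell class in single-cell RNA sequencing of mouse pancreatic tumours. The set was chosen by name and holds 9 of the 32285 genes of the files: the ligands Ccl2, Ccl7, Ccl8, Ccl12, Ccl6, Ccl9 and Ccl24 and the receptors Ccr2 and Ccr1. CC chemokines are small secreted proteins that steer cells along a gradient through receptors on the cell surface. Ccl2, Ccl7 and Ccl12 act on Ccr2, which inflammatory monocytes carry when they leave the bone marrow, and in pancreatic tumours this axis is known for supplying the macrophages of the stroma. Ccl6 and Ccl9 are rodent ligands of Ccr1, which neutrophils and monocytes carry, mouse Ccl8 is known as a ligand of Ccr8, and Ccl24 acts on Ccr3, the receptor of eosinophils.

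KPC cells, a line from tumours of mice with a pancreatic Pdx-1-Cre, were placed in the pancreas after lentiviral transfer of a hairpin, either a control (group KPC-shV) or one that targets Zeb1 (group KPC-shZEB1). For each group 1 tumour from 1 mouse was dissociated with enzymes and sequenced as 1 droplet library of RNA 3′ ends. The labels give no strain, age or drug for these animals. The study worked with young mice of several strains and describes gemcitabine treatment for the tumours it compared, and both groups share the line, the site and the hairpin procedure. Hairpin, mouse, tumour, dissociation and library are therefore the same split and cannot be told apart. No test was possible and no p-value is given. Levels are unique molecular identifiers (UMIs) of a gene per 1000000 UMIs of the cells named (CPM), and each ratio divides the KPC-shZEB1 level by the KPC-shV level. Where a pair of values is given, KPC-shV comes first. Ranges in parentheses are 95% intervals that cover counting error only, not the difference between mice.

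The files held 12594 and 13271 barcodes, of which 11398 and 12104 cells were kept, with a median of 3720 and 4252 UMIs. The libraries shared 46 barcodes. In tumour-like cells Zeb1 went against its label, with 130 and 173 CPM. This class left out an unnamed cluster led by Cntn5 and Prg4 (497 and 203 cells), for which the Zeb1 level was not computed. The class took in a cluster led by Zfp804b and Pcdh9 with 9 and 228 cells. The study reports a Zeb1 knockdown efficiency for its KPC cells, and what lies behind the levels here was not tested. The libraries are therefore named by their labels throughout, and every direction given below is a direction between labels. Cells were grouped without the 9 genes and without 11 other genes of the pathway, and named from markers as X-like. Macrophage-like cells numbered 1295 and 2013, monocyte-like cells 178 and 227, and granulocyte-like cells 6865 and 4320. The monocyte-like cells carried all 7 monocyte markers searched, such as Ly6c2, Chil3 and Vcan, at a summed 5755 and 5151 CPM against 931 and 925 CPM in macrophage-like cells.

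On the genome (GRCm38) 8 of the 9 genes lie in 3 groups and Ccl24 stands alone. Ccl2, Ccl7, Ccl12 and Ccl8, with the eotaxin gene Ccl11 between them, fill chr11:82035571-82116799 on the plus strand, a stretch of 81.2 kb. Ccl9 and Ccl6 are neighbours on the minus strand at chr11:83572919-83593087. Ccr1 (chr9:123962124-123968692, minus strand) and Ccr2 (chr9:124101950-124113557, plus strand) lie near each other, and Ccl24 is at chr5:135569937-135573049. RefSeq promoter sequences matched 6 of the 9 genes, namely Ccl8, Ccl12, Ccl6, Ccl9, Ccr2 and Ccr1. Those of the neighbours Ccl8 and Ccl12 are shown because both RNAs lay mostly in macrophage-like cells of these tumours, while their levels differed between the libraries in opposite directions. Each run is the 250 bases before the transcription start, 5′ to 3′ on the plus strand of GRCm38.p6, with TATAAA in capitals.
Ccl8, chr11:82114935-82115184: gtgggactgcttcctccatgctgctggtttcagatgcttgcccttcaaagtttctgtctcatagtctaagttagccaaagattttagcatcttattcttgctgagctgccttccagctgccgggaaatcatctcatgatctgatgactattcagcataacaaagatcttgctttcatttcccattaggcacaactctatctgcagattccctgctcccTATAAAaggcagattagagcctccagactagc
Ccl12, chr11:82101595-82101844: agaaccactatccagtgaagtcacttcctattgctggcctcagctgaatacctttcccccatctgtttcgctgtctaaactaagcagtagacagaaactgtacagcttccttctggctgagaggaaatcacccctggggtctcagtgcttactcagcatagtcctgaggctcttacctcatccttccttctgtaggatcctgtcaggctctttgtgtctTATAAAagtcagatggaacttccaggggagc

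The word TATAAA begins 32 bases before the start in Ccl8 and 31 bases before it in Ccl12. It lay on the forward strand 25 to 40 bases before the start in 1.90% of 32536 promoters, and anywhere in the 250 bases on either strand in 12.3%. The pair had the same base in 55.6% of the columns of a global alignment, against 41.0% to 50.2% in the other 14 pairs of the 6 promoters. Words for AP-1 (TGANTCA), C/EBP (TTNNGNAA), STAT (TTCNNNGAA), IRF (GAAA, any 2 bases, GAAA), PU.1 (GAGGAAGT) and NF-kB were searched on both strands and none was in these 2 runs. Ccl9 held words for AP-1, C/EBP, NF-kB and TATAAA, Ccr1 for C/EBP and NF-kB, Ccr2 for C/EBP alone and Ccl6 for none. Of all promoters 6.73% held the AP-1 word, 36.8% the C/EBP word, 7.28% the NF-kB word, 7.04% the STAT word, 2.98% the IRF word and 2.45% the PU.1 word. The AP-1, NF-kB and STAT words can read the same on both strands.

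Which cells held these RNAs was asked first. Most UMIs of 6 of the 7 ligands lay in macrophage-like cells of both libraries, and monocyte-like cells held few of their UMIs. In the KPC-shV-labelled library, macrophage-like cells made up 11.4% of cells and held 55.0% of the Ccl2, 65.6% of the Ccl7, 80.8% of the Ccl8 and 86.6% of the Ccl12 UMIs. In the KPC-shZEB1-labelled library they made up 16.6% of cells and held 60.2%, 66.0%, 80.5% and 84.0% of the same genes. Monocyte-like cells held between 0.239% and 5.53% of any ligand in either library. Among the named classes, fibroblast-like cells (3.17% and 3.15% of cells) were the second source of Ccl2 and Ccl7. They held 15.995% and 16.6% of the Ccl2 and 18.9% and 18.3% of the Ccl7 UMIs. An unnamed cluster led by Cntn5 and Prg4 (497 and 203 cells) belongs to no class. Ccl6 was the exception, with 51.2% of its UMIs in granulocyte-like cells of the KPC-shV-labelled library and 17.2% in those of the KPC-shZEB1-labelled library. The receptors were held differently, since Ccr1 lay mostly in granulocyte-like cells (66.4% and 42.1%) and Ccr2 in macrophage-like (55.3% and 50.01%) and monocyte-like cells (13.6% and 12.3%). The Ccr2 shares depend on 1 hypoxic Arg1 cluster near the border of these classes, which held 27.2% and 13.8%, and counted with monocyte-like cells it brings their share to 40.8% and 26.1% and leaves macrophage-like cells 28.1% and 36.2%.

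**Figure D1:**
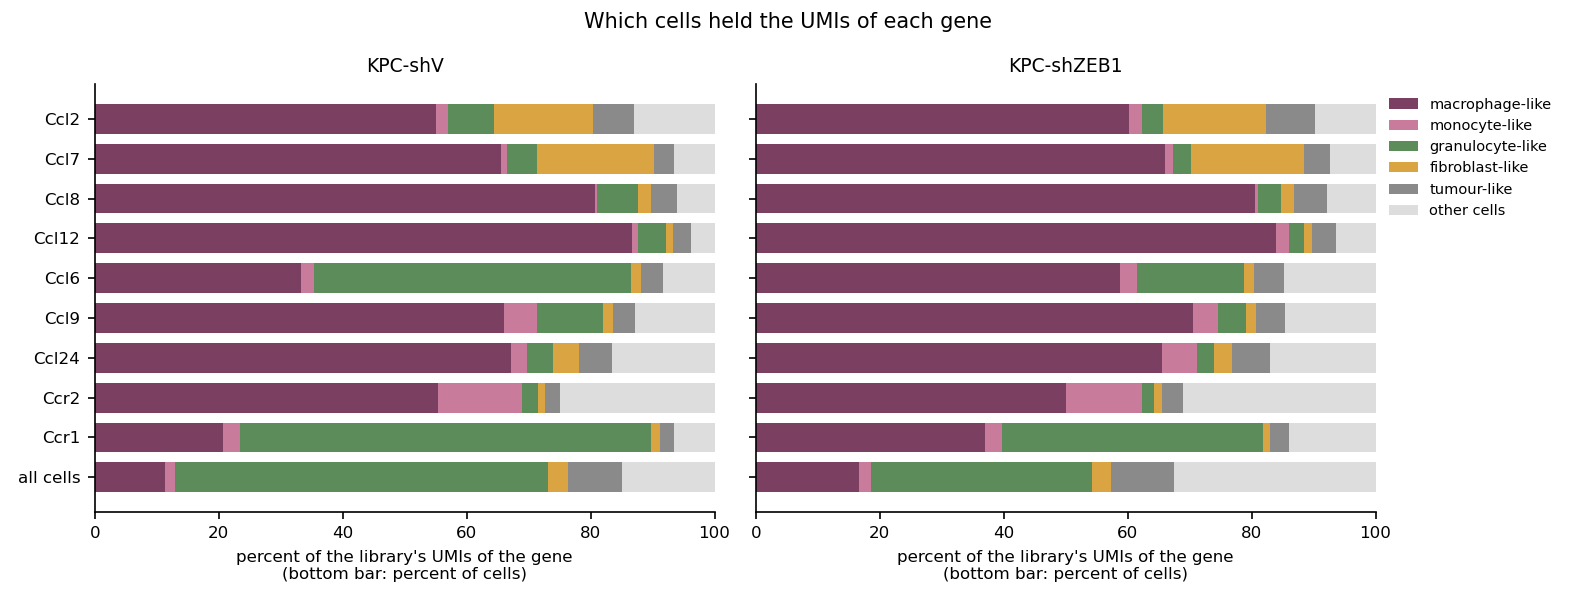
Percent of each gene's UMIs (horizontal axis) held by 5 classes and by all other cells, 1 panel per library, with the percent of cells in the bottom bar. Macrophage-like cells hold over 80% of the Ccl8 and Ccl12 UMIs in both libraries, and the granulocyte-like share of Ccl6 is 51.2% in KPC-shV and 17.2% in KPC-shZEB1.

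All 9 RNAs also appeared at a low level in cells not known to use them, and this level differed between the libraries. In B-like cells, the class used as a reference for free RNA (289 and 1226 cells), Ccl2 reached 64.6 and 101 CPM, Ccl7 121 and 159 CPM and Ccl8 49.1 and 113 CPM. Ccl6 was at 207 and 279 CPM there, Ccl9 at 28.4 and 68.3 CPM and Ccl24 at 11.2 and 30.5 CPM. The ratios in B-like cells ran from 1.13 for Ccr1 to 2.72 for Ccl24, all above 1, and only those of Ccr1 and Ccr2 had intervals that held 1. A class whose level is near the B-like one is therefore read as background below. Ccl8 gives the plainest case, because outside macrophage-like cells its level followed the B-like one in nearly every class, at 47.1 and 105 CPM in T-like, 49.3 and 84.0 CPM in tumour-like and 45.4 and 86.4 CPM in fibroblast-like cells. The B-like levels moved with the processing. With doublets kept, Ccl7 (255 and 204 CPM), Ccl12 (33.7 and 21.1 CPM), Ccl24, Ccr2 and Ccr1 (125 and 78.1 CPM) were lower in B-like cells of the KPC-shZEB1-labelled library. Ccl2, Ccl8, Ccl6 and Ccl9 were still higher there. Multiples of the B-like level below hold for the processing as reported.

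**Figure D2:**
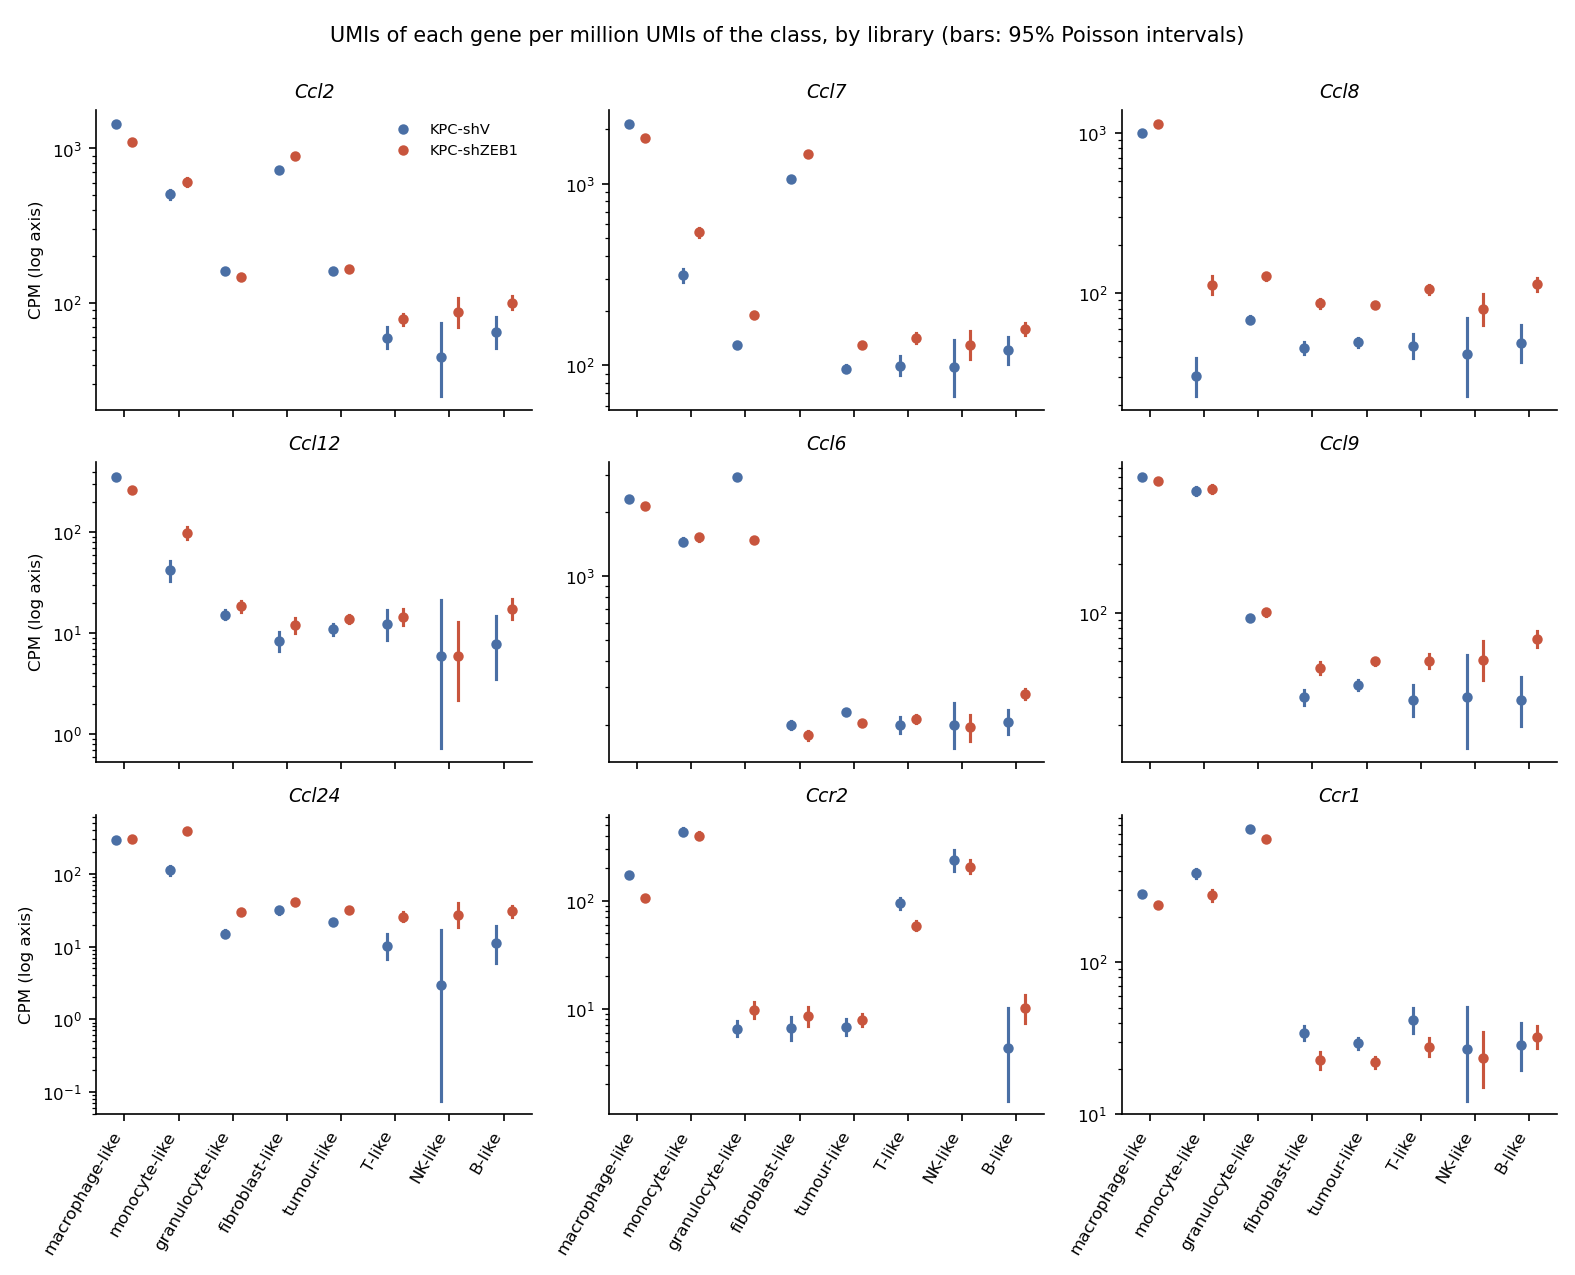
Level of each gene (CPM, log axis, scale set per panel) in 8 classes, with 1 point per library and 95% Poisson intervals. Ccl8 and Ccl12 stand above the B-like level mainly in macrophage-like cells, and Ccl2 and Ccl7 in fibroblast-like and monocyte-like cells too. Ccl6 and Ccr1 stand above it in granulocyte-like, macrophage-like and monocyte-like cells. Ccr2 does so in monocyte-like, NK-like, macrophage-like and T-like cells.

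Ccl2, the main ligand of Ccr2, had its highest level in macrophage-like cells, at 1431 CPM (1414–1448) in the KPC-shV-labelled library and 1105 CPM (1094–1117) in the KPC-shZEB1-labelled library. Fibroblast-like cells followed with 721 and 900 CPM and monocyte-like cells with 505 and 607 CPM. The values of these 3 classes did not overlap between libraries. Tumour-like cells were at 162 and 166 CPM and granulocyte-like cells at 161 and 146 CPM, 1.46 to 2.51 times the B-like level. The unnamed cluster led by Cntn5 and Prg4 held Ccl2 at 351 and 375 CPM. No marker list named it, and whether it holds tumour cells was not tested. The ratio was 0.772 (0.760–0.785) in macrophage-like cells, 1.25 (1.21–1.29) in fibroblast-like cells and 1.20 (1.10–1.31) in monocyte-like cells, so that the libraries differed in opposite directions in macrophage-like and fibroblast-like cells. The UMIs were unevenly spread, and the tenth of macrophage-like cells with the most held 46.5% and 47.0% of the Ccl2 of the class.

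Ccl7, which acts on Ccr2 and on other receptors, followed Ccl2 closely. It stood at 2123 and 1782 CPM in macrophage-like cells, at 1063 and 1455 CPM in fibroblast-like cells and at 313 and 540 CPM in monocyte-like cells. These 3 levels again did not overlap. The ratios were 0.840 (0.829–0.850), 1.37 (1.34–1.40) and 1.73 (1.56–1.91). In granulocyte-like cells Ccl7 was at 129 and 189 CPM, 1.07 and 1.19 times the B-like level. Over 37 clusters of at least 50 cells, Ccl7 was the gene most like Ccl2 of 7917 compared (Pearson's r = 0.957 on log2(CPM + 1)), followed by Gm17268 (r = 0.947) and Rcan1 (r = 0.893). After Ccl2, Ccl7 was most like Selenop (r = 0.895) and Gm15726 (r = 0.893). The clusters share their libraries, and these correlations are descriptions over clusters.

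Ccl8 and Ccl12 were the members most bound to macrophage-like cells. Ccl8 reached 999 CPM (985–1013) and 1128 CPM (1117–1140) there, 20.3 and 9.96 times the B-like level, and its ratio was 1.13 (1.11–1.15). Ccl12, a mouse ligand of Ccr2, reached 354 CPM (345–362) and 265 CPM (260–271), 45.6 and 15.2 times the B-like level, and its ratio was 0.751 (0.727–0.775). The neighbours thus differed between the libraries in opposite directions. Monocyte-like cells were next for Ccl12, at 42.2 and 98.4 CPM, 5.44 and 5.63 times the B-like level of 7.76 and 17.5 CPM. Ccl8 was at 30.3 and 112 CPM in monocyte-like cells, at or under the B-like level in both libraries, and is read as background there. The genes most like Ccl8 were Ms4a7 (r = 0.903), Ccl12 (r = 0.878) and Apoe (r = 0.870), and those most like Ccl12 were Apoe (r = 0.945) and the complement genes C1qc (r = 0.942) and C1qb (r = 0.939). Ms4a7, Apoe, C1qb and C1qc are among the markers that named the macrophage-like cells.

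Ccl6 and Ccl9, ligands of Ccr1, were shared by the myeloid classes. Ccl9 stood at 698 and 666 CPM in macrophage-like cells and at 571 and 591 CPM in monocyte-like cells, with 115 and 119 CPM in cDC2-like cells and 93.2 and 101 CPM in granulocyte-like cells. Its ratio was 0.954 (0.933–0.975) in macrophage-like and 1.03 (0.951–1.12) in monocyte-like cells, where counting error alone covers the difference. Ccl6 stood at 2314 and 2150 CPM in macrophage-like cells, a ratio of 0.929 (0.918–0.940), and at 1457 and 1526 CPM in monocyte-like cells, a ratio of 1.05 (0.995–1.10). The order of these classes depended on the library, because Ccl6 in granulocyte-like cells was 2947 CPM (2925–2970) in the KPC-shV-labelled library and 1490 CPM (1469–1510.5) in the KPC-shZEB1-labelled library. That ratio of 0.505 (0.497–0.513) was the lowest of any member in the 3 myeloid classes. Outside the myeloid classes, acinar-like cells (21 and 287 cells) held Ccl6 at 609 to 932 CPM in the libraries. After thinning each cell to 1000 UMIs, 63.2% of granulocyte-like cells of the first library and 47.5% of the second held a Ccl6 UMI, with 21.5% and 21.6% in B-like cells (83.1% and 73.3% against 54.7% and 53.9% unthinned, at median depths of 3147 and 2908.5 against 3732 and 3417.5 UMIs). Ccl6 was most like Wfdc17 (r = 0.940), Fcgr3 (r = 0.935) and Osm (r = 0.919), and Ccl9 was most like C3ar1 (r = 0.947), Lyz2 (r = 0.931) and Csf1r (r = 0.93).

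The granulocyte-like difference in Ccl6 was present in each of the 5 granulocyte-like states but smaller in most, with ratios from 0.465 to 0.798. A state led by Gpr171 and Nr4a2 had the lowest Ccl6, 616 and 464 CPM, and made up 14.9% of granulocyte-like cells in the KPC-shV-labelled library and 39.0% in the KPC-shZEB1-labelled library. The hypoxic state had the highest, 3739 and 2894 CPM, and made up 38.1% and 17.0%. With every state given the same share of UMIs in both libraries, the Ccl6 ratio was 0.693 in place of 0.505. The median gene of granulocyte-like cells had a ratio of 1.07 (0.10 on the log2 scale), and relative to it the Ccl6 ratio was 0.471.

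Ccl24, an eosinophil attractant, was a gene of few cells. It stood at 288 CPM (280–295) and 302 CPM (296–308) in macrophage-like cells, and the tenth of those cells with the most held 89.3% and 86.7% of its UMIs. A single macrophage-like cell held up to 322 and 263 UMIs. The ratio of 1.05 (1.02–1.09) was close to 1 and changed side with the processing. In monocyte-like cells Ccl24 was at 112 CPM (97.7–129) and 393 CPM (366–421), a ratio of 3.49 (2.99–4.09), with 251 of its 810 UMIs in the second library in 1 cell. Without the 5 cells with the most Ccl24 in each library the levels were 45.4 and 119 CPM and the ratio was 2.62 (2.03–3.42). Ccl24 was most like Msr1 (r = 0.882), Arg1 (r = 0.863) and Lyz2 (r = 0.863).

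How the ligands varied among macrophage-like cells was examined next, over 9 states that the members did not help to define. The Lyve1-Folr2 state, named from markers of resident macrophages, held 129 and 222 cells, had the highest Ccl2, at 4171 and 4053 CPM, and stood at 6232 and 6619 CPM for Ccl7. The state led by Bmp2 and Ptprm, which also had Lyve1 and Folr2 among its leading genes, came next for Ccl2, at 3630 and 2987 CPM, and had the highest Ccl8, at 3570 and 3690 CPM, and the highest Ccl12, at 913 and 704 CPM. The state led by Plet1 and Adamdec1 lay at the other end, with Ccl2 at 142 and 152 CPM and Ccl7 at 203 and 202 CPM, 1.27 to 2.20 times the B-like level. Between the highest and the lowest state Ccl2 differed 29.3-fold and 26.7-fold in the libraries and Ccl7 32.4-fold and 32.8-fold. These differences between states were far larger than any difference between the libraries within a state, which for Ccl2 ran from 0.739 to 1.19.

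Ccl24 had its highest level in the Plet1 and Adamdec1 state, where Ccl2 and Ccl7 were lowest. It stood there at 889 and 852 CPM, and 31.6% and 31.0% of cells held a UMI after thinning. Over the 37 clusters of all classes the correlation of Ccl24 with Ccl2 was 0.624. Its lowest level was 33.3 CPM in the Edil3 and Thbs1 state of the KPC-shV-labelled library and 66.5 CPM in the Bmp2 and Ptprm state of the KPC-shZEB1-labelled library. Ccl6 was highest in the Gpnmb-Mmp12 state, at 4173 and 5028 CPM, and lowest in the Vcam1 and Dnase1l3 state, at 873 and 960 CPM. Ccl9 was highest in the Lyve1-Folr2 state, at 1422 and 1691 CPM. The hypoxic Arg1 state, in which the 7 monocyte markers summed to 1656 and 1502 CPM, held Ccl8 at 51.8 and 81.6 CPM, within the B-like range, but Ccl6 at 3850 and 3648 CPM. The ligands therefore fell into sets that peaked in different macrophage-like states.

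**Figure D3:**
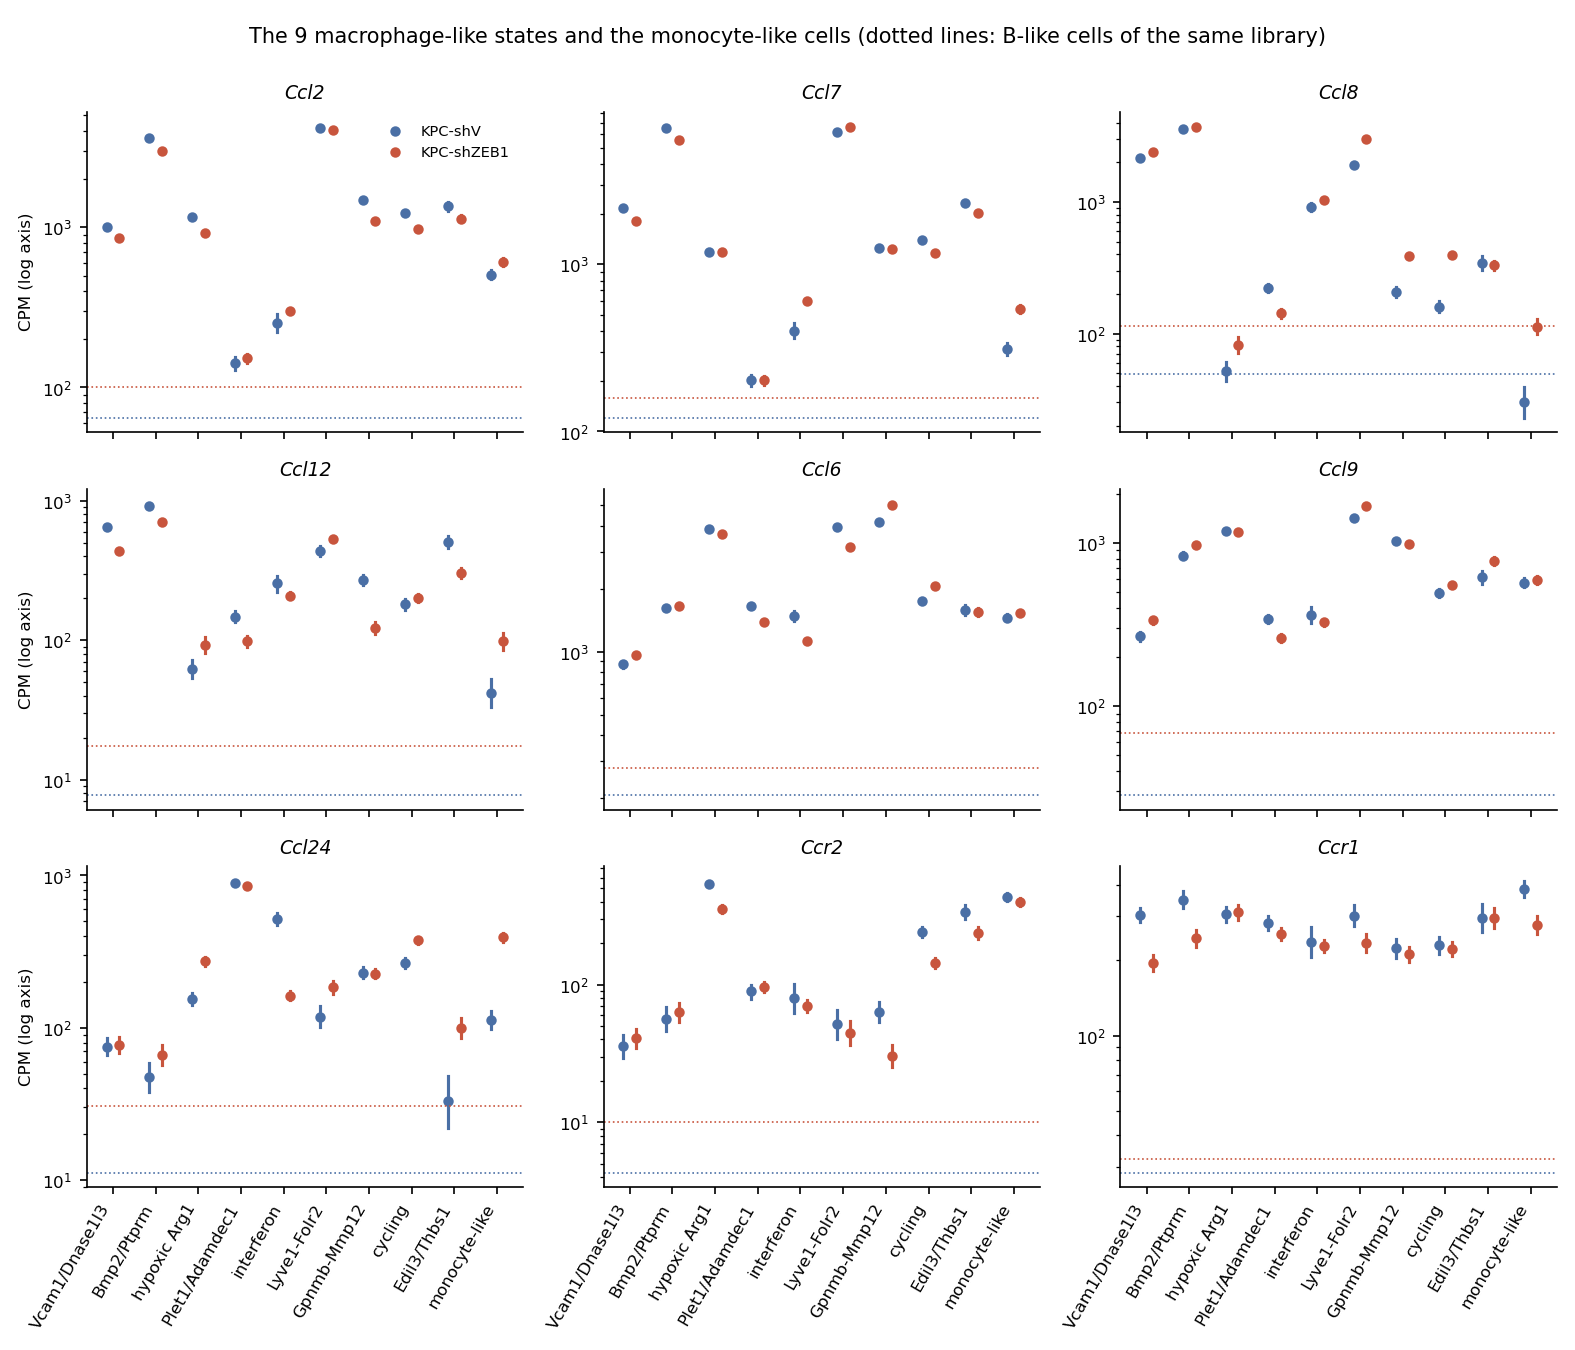
Level of each gene (CPM, log axis, scale set per panel) in the 9 macrophage-like states and in monocyte-like cells, with 1 point per library, 95% Poisson intervals and dotted lines at the level of B-like cells of the same library. Ccl2 spans 29.3-fold and 26.7-fold between the Plet1/Adamdec1 and Lyve1-Folr2 states, while Ccl24 is highest in the Plet1/Adamdec1 state. Ccr2 peaks in the hypoxic Arg1 state and in monocyte-like cells, and Ccr1 is nearly level.

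Within states the libraries differed in a way that depended on the gene. Ccl2 was lower in the KPC-shZEB1-labelled library in 6 of 9 states, beyond counting error, and higher in 1, the interferon state (254 and 301 CPM). Ccl8 was higher in 7 of 9, with ratios of 1.56 (1.49–1.64) in the Lyve1-Folr2 state, at 1921 and 3002 CPM, 1.88 (1.69–2.10) in the Gpnmb-Mmp12 state and 2.49 (2.23–2.78) in the cycling state. The 7 include the hypoxic Arg1 state, at 51.8 and 81.6 CPM, where Ccl8 is read as background. They also include the Bmp2 and Ptprm state, where the levels were close, at 3570 and 3690 CPM. Ccl8 was lower in the Plet1 and Adamdec1 state (222 and 142 CPM, ratio 0.641). Ccl12 was lower in 6 of 9, most in the Gpnmb-Mmp12 state, with 273 and 123 CPM and a ratio of 0.450 (0.398–0.510), or 0.536 (0.464–0.618) without the cell with the most Ccl12 in each library. Ccl12 was higher in 2 states, the hypoxic Arg1 state (62.2 and 93.1 CPM, ratio 1.496) and the Lyve1-Folr2 state (439 and 533 CPM, ratio 1.21). Ccl24 ran from a ratio of 0.314 (0.280–0.352) in the interferon state, at 517 and 162 CPM, to 3.00 (1.99–4.68) in the Edil3 and Thbs1 state, at 33.3 and 99.7 CPM. Both ends rested on few cells. In the interferon state of the KPC-shV-labelled library 5 of 46 cells held 82.6% of the Ccl24 UMIs, and in the Edil3 and Thbs1 state of the KPC-shZEB1-labelled library 1 cell held 85 of 165, without which, and without the top cell of the other library, the ratio was 1.98 (1.20–3.42). The mix of states also differed, since the interferon state made up 3.55% of macrophage-like cells (46 cells) in the first library and 16.4% (330 cells) in the second, and the hypoxic Arg1 state 17.7% and 9.34%. With equal shares of the states the ratios were 0.855 for Ccl2, 0.931 for Ccl7, 1.18 for Ccl8, 0.780 for Ccl12, 0.996 for Ccl6, 1.05 for Ccl9 and 0.975 for Ccl24. The signs of Ccl2, Ccl7, Ccl8 and Ccl12 stayed as in the class as a whole, and those of Ccl9 and Ccl24 did not.

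Ccr2, the receptor of Ccl2, Ccl7 and Ccl12, had its highest level among classes in monocyte-like cells, at 435 CPM (406–466) and 400 CPM (373–428), 101 and 39.7 times the B-like level. After thinning 33.1% and 32.2% of monocyte-like cells held a Ccr2 UMI, against 0.692% and 0.979% of B-like cells (86.0% and 84.6% against 1.73% and 3.51% unthinned). The ratio of 0.919 (0.833–1.01) lay within counting error. NK-like cells followed with 235 and 206 CPM, and among T-like cells the gamma-delta state had 424 and 364 CPM and the regulatory state 335 and 205 CPM. Macrophage-like cells were at 173 and 105 CPM, cDC2-like cells at 147 and 66.6 CPM and T-like cells at 94.1 and 58.5 CPM, and these 3 classes overlapped. Granulocyte-like, fibroblast-like and tumour-like cells held Ccr2 at 6.52 to 9.70 CPM, between the B-like levels of 4.31 and 10.1 CPM.

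Among macrophage-like states Ccr2 was highest in the hypoxic Arg1 state, at 541 CPM (515–568) and 356 CPM (333–379). This state lay between the classes, since its 7 macrophage markers summed to 4846 and 9837 CPM, above monocyte-like cells and below macrophage-like cells as a whole. Vcan and Chil3 of the monocyte list were among the genes that set it apart from the other macrophage-like states. Its macrophage name rests on a marker score of 0.225, just above the minimum of 0.2 that was set after seeing the data. The Edil3 and Thbs1 state followed at 338 and 236 CPM and the cycling state at 242 and 144 CPM. The Lyve1-Folr2 state, highest for Ccl2, held Ccr2 at 51.4 and 44.5 CPM. The hypoxic Arg1 state held Ccl2 at 1158 and 923 CPM. Over the 37 clusters the correlation of Ccr2 with Ccl2 was 0.230. The macrophage-like ratio was 0.611 (0.582–0.641), and it lay within 1.5-fold when doublets were kept (0.802) and under a looser cell filter (0.817). Without the hypoxic Arg1 state, whose share of macrophage-like cells was 17.7% and 9.34%, the levels were 104 and 83.1 CPM and the ratio was 0.798 (0.7496–0.85002), no longer past 1.5-fold. Within states it was 0.658 (0.606–0.714) in the hypoxic Arg1 state, 0.594 (0.530–0.666) in the cycling state, 0.480 (0.371–0.620) in the Gpnmb-Mmp12 state and 0.700 (0.598–0.820) in the Edil3 and Thbs1 state. In the other 5 states the intervals held 1. With equal shares of the states the ratio was 0.728. Ccr2 was also lower in the KPC-shZEB1-labelled library in T-like cells, at a ratio of 0.622 (0.533–0.727), and in cDC2-like cells, at 0.451 (0.350–0.584). AI504432 (r = 0.773) and Dok2 (r = 0.767) were among the 3 genes most like it.

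Ccr1, the receptor of Ccl6 and Ccl9, was highest in granulocyte-like cells, at 752 CPM (741–763) and 645 CPM (632–659), 26.4 and 20.01 times the B-like level. The ratio was 0.858 (0.836–0.881). The Cxcr2-Retnlg state, named from genes of circulating neutrophils, had the most, 1212 and 953 CPM, and the state led by Gpr171 and Nr4a2 held 529 and 501 CPM. With equal shares of the states the granulocyte-like ratio was 0.897. Monocyte-like cells followed with 386 and 278 CPM, a ratio of 0.719 (0.643–0.804), and macrophage-like cells with 282 and 238 CPM, a ratio of 0.844 (0.815–0.875). Acinar-like cells (21 and 287 cells) overlapped both, with levels from 152 to 495 CPM in the libraries. Ccr1 varied little among the macrophage-like states, 1.56-fold and 1.59-fold between the highest and the lowest, against 15.2-fold and 11.7-fold for Ccr2. The genes most like it were Nlrp3 (r = 0.983), Cd14 (r = 0.976) and Rab20 (r = 0.964), and its correlation with Ccr2 over the 37 clusters was 0.0170.

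**Figure D4:**
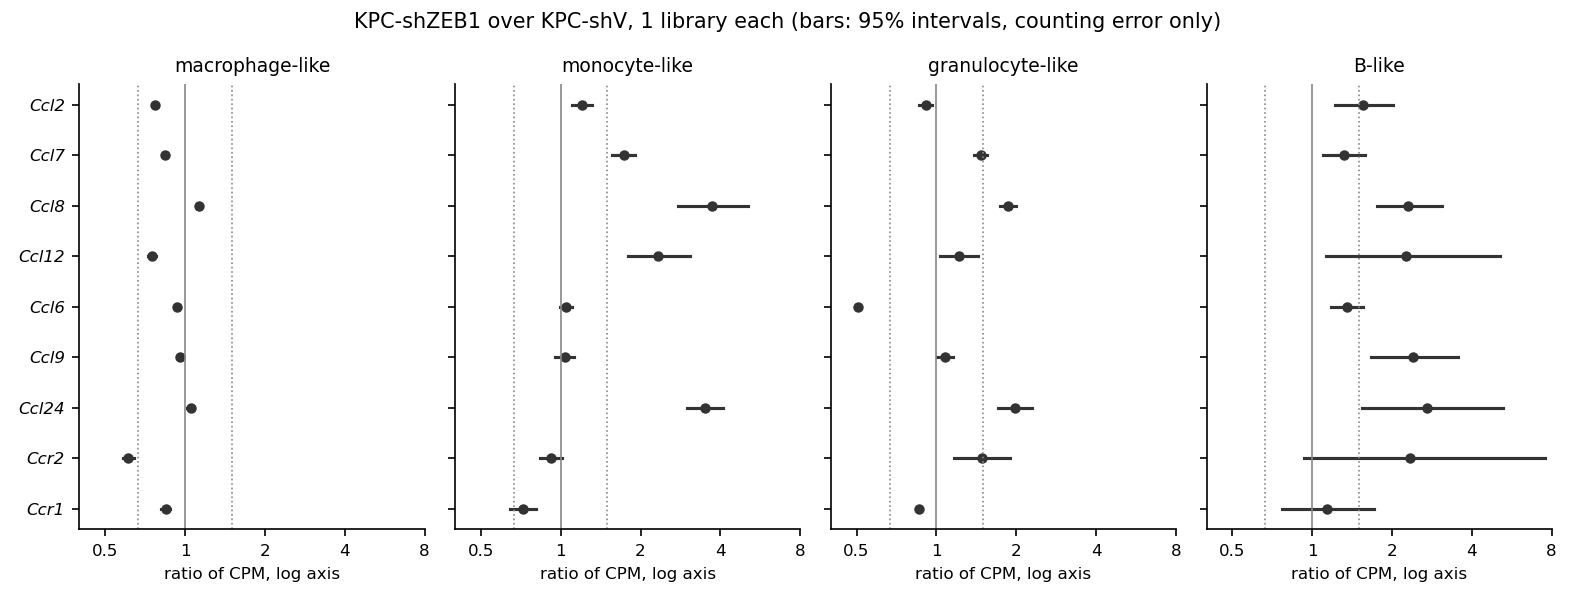
Ratio of CPM (KPC-shZEB1 over KPC-shV, log axis) of each gene in 4 classes, with 95% intervals for counting error only, a solid line at 1 and dotted lines at 1.5-fold either way. The 9 macrophage-like ratios lie between 0.611 and 1.13, and Ccl6 stands at 0.505 in granulocyte-like cells. The B-like ratios, the reference for free RNA, run from 1.13 to 2.72 in the cells as reported and moved with the processing.

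As a fixed measure of size, genes with at least 100 UMIs in a class were counted past 1.5-fold in either direction. In macrophage-like cells this was 1 of the 9 genes, Ccr2 (none without the hypoxic Arg1 state), and 6.69% of 11786 genes. The median ratio of the 9 was 0.844, and that of all these genes 1.02. In granulocyte-like cells 3 of 9 were past it, Ccl6 lower and Ccl8 and Ccl24 higher, with 22% of 10631 genes, and relative to the median gene of the class their ratios were 0.471, 1.74 and 1.85. Ccl8 was at 68.2 and 127 CPM there, 1.39 and 1.12 times the B-like level, and Ccl24 at 15.1 and 29.9 CPM, 1.34 and 0.98 times it, so that only Ccl6 differed well above the background. In tumour-like cells Ccl8 alone was past 1.5-fold, with 12.8% of genes. In fibroblast-like cells Ccl8 and Ccl9 were higher and Ccr1 lower, with 8.23% of genes, and in T-like cells Ccl8, Ccl9 and Ccl24 were higher and Ccr2 lower, with 6.7% of genes. Of these only Ccr2 in T-like cells was above 2 times the B-like level in both libraries.

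In monocyte-like cells 4 of the 9 genes were past 1.5-fold, all higher in the KPC-shZEB1-labelled library, namely Ccl7, Ccl8, Ccl12 and Ccl24, with 9.82% of 5079 genes. Ccl8, at 30.3 and 112 CPM against 49.1 and 113 CPM in B-like cells, is read as background. Ccl12, at 42.2 and 98.4 CPM, stood above a B-like level that was also higher in that library, 7.76 and 17.5 CPM. For Ccl24, 1 cell held 251 of the 810 UMIs of that library, and the ratio without the top 5 cells of each library was 2.62. The median ratio of the 9 was 1.20, and that of all these genes 1.01. Markers of macrophages moved with them. The 7 macrophage markers searched summed to 1647 CPM in monocyte-like cells of the KPC-shV-labelled library and 7025 CPM in those of the KPC-shZEB1-labelled library, a ratio of 4.27, against 846 and 2241 CPM in B-like cells. In macrophage-like cells they summed to 17242 and 25746 CPM. The part of these markers in the 4 differences was not tested. The line between monocyte-like and macrophage-like cells also moved with the processing. When each library was clustered and named alone, monocyte-like cells numbered 374 and 90, and the 4 genes past 1.5-fold were Ccl2, Ccl7, Ccl6 and Ccl24, all lower in the KPC-shZEB1-labelled library, with Ccl7 at 702 and 312 CPM and Ccl24 at 160 and 99.6 CPM. Under the other 4 ways to filter, cluster or name the cells, Ccl7, Ccl8 and Ccl24 were again past it and higher, with Ccl8 under the B-like level in each. Ccl12 was past it and higher with the looser cell filter. In the rest it was also higher, but had under 100 UMIs: 36 and 46 with doublets kept, 36 and 49 with the highest scores removed and 42 and 49 at resolution 2.

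**Figure D5:**
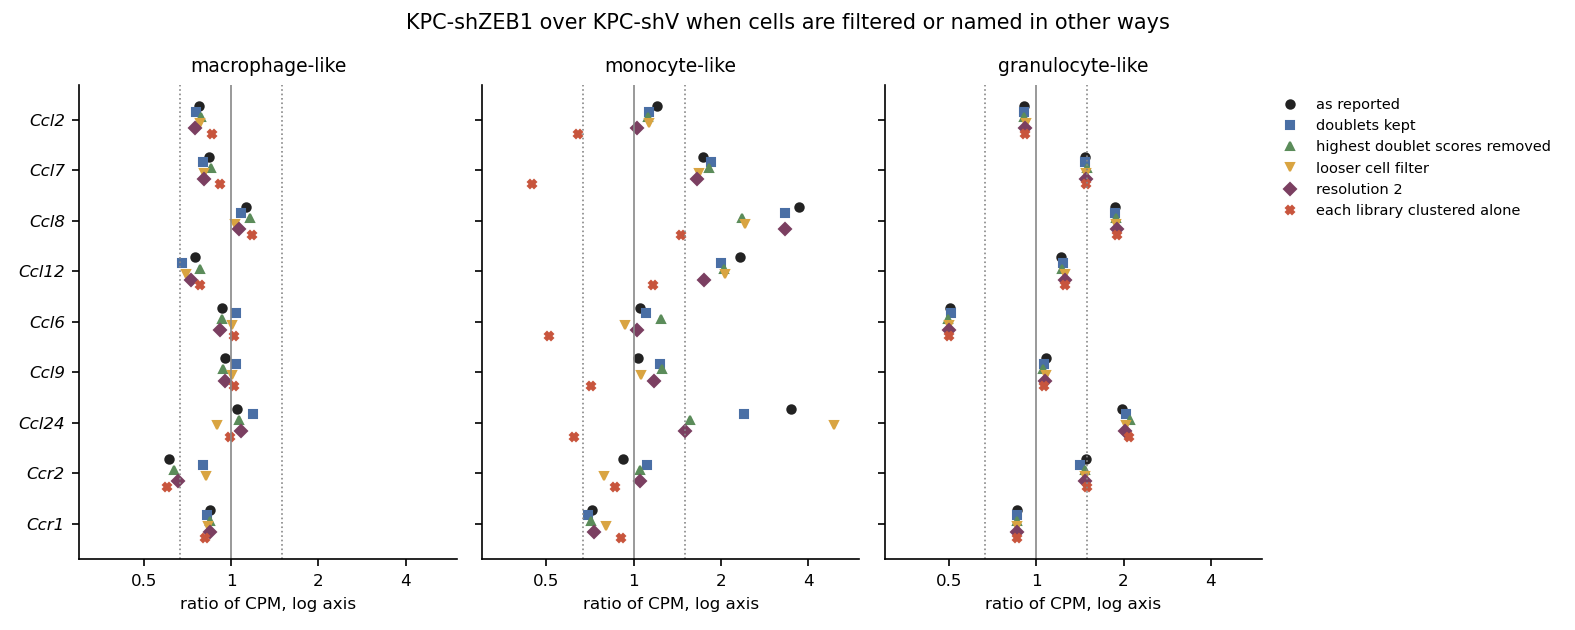
Ratio of CPM (log axis) of each gene in 3 classes as reported and under 5 other ways to remove doublets, filter, cluster or name cells, with a solid line at 1 and dotted lines at 1.5-fold. The granulocyte-like ratios keep their places, while in monocyte-like cells Ccl7 lies at 1.73 as reported and at 0.445 when each library is clustered alone.

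Of 11 other genes of the pathway, 7 had enough UMIs in macrophage-like cells, and Ccl5, a chemokine of lymphocytes and macrophages, was past 1.5-fold, at 166 and 339 CPM with a ratio of 2.05 (1.97–2.13). The median ratio of the 7 was 0.927. The other 6 included Ccl3, Ccl4, Cx3cr1, Csf1 and Csf1r, the receptor that macrophages need for survival, at 338 and 403 CPM. In monocyte-like cells Ccl5 was again the 1 of 7 past it, at 70.3 and 204 CPM. In granulocyte-like cells 4 of 8 were past it, with Ccl3, a ligand of Ccr1, lower at 7624 and 4740 CPM and 3 higher, among them Ccl5 and Csf1r. The background there was 22% of genes, Ccl5 was 1.73 and 1.13 times the B-like level, and Ccl4 had a ratio of 0.763 (0.756–0.770). In tumour-like cells 4 were higher and 1 lower of 7, with 12.8% of all genes, in fibroblast-like cells 5 higher and 1 lower of 9, with 8.23%, and in T-like cells 1 higher of 7, with 6.7%. Only Ccl11 and Ackr1 in fibroblast-like cells among these were above 2 times the B-like level in both libraries. Ccl11, a ligand of Ccr3, stood in fibroblast-like cells at 101 and 163 CPM, a ratio of 1.61 (1.49–1.74). Ccr3 had under 100 UMIs in macrophage-like and in monocyte-like cells and stood at 6.26 and 5.67 CPM in granulocyte-like cells, so that the receptor of Ccl24 and Ccl11 was hardly detected in these 3 classes. Ackr1, a decoy receptor of venous endothelium, was at 155 and 72.3 CPM in endothelial-like cells (147 and 82 cells).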

How the data were processed

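Droplet libraries (10x Chromium 3′ v3.1) of 2 tumours, 1 per group, were processed by the authors with Cell Ranger 7.0.1 against mm10, per the labels and methods, and the deposited values are raw UMI counts per gene and barcode. Whether introns were counted is not given in the sources used here. Following the study's limits, barcodes were dropped below 500 genes, below 1000 or above 60000 UMIs, or above 15% mitochondrial UMIs, and then where the Scrublet doublet score passed 0.2 (315 and 343 barcodes). Counts totalled 101201508 and 118943000 UMIs in the cells kept. Cells of both libraries were clustered together (scanpy 1.11.5, Leiden, 3000 variable genes, 30 components, resolution 1, no batch integration), with 20 chemokine pathway genes kept out, and myeloid and lymphoid cells were clustered again. Names came from marker lists. UMIs were summed by class and library. Levels carry exact Poisson intervals, ratios exact conditional intervals and shares of cells exact binomial ones, all at 95%. To compare shares, cells were thinned to 1000 UMIs. The ratio script was tested on simulated data. The genes, lists and rules were chosen with earlier results of these data known, and the scoring rule for markers (minimum score 0.2), the rule for mixed clusters, the doublet threshold and the multiple of the B-like level (2) asked of singled-out results were set after seeing the data. Named genes are the 9 members, the pathway genes past 1.5-fold and the 3 genes most like each member. The alternatives changed doublet removal, cell filter, resolution, joint clustering, averaging, scale, free RNA, cells with many UMIs and depth. A gene of the pathway list is counted but not reported here.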

Additional observations from a re-analysis of the deposited data

Results flagged for a closer look

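Ccl12 was singled out because its ratio pointed one way in monocyte-like cells and the other way in 3 groups of macrophage-like cells. It was higher in the library labelled KPC-shZEB1 in monocyte-like cells, at 42.2 and 98.4 CPM (ratio 2.33). It was lower there in the macrophage-like state led by Plet1 and Adamdec1, at 148 and 98.3 CPM (ratio 0.665), in the Gpnmb-Mmp12 state, at 273 and 123 CPM (ratio 0.450), and in the state led by Edil3 and Thbs1, at 510 and 303 CPM (ratio 0.595). In 2 other macrophage-like states it was higher there, as in monocyte-like cells, namely the hypoxic Arg1 state (62.2 and 93.1 CPM, ratio 1.496) and the Lyve1-Folr2 state (ratio 1.21). In the Gpnmb-Mmp12 state 1 cell held 187 of the 588 Ccl12 UMIs of the KPC-shV-labelled library. In B-like cells Ccl12 was at 7.76 and 17.5 CPM, also higher in the library labelled KPC-shZEB1, but at 33.7 and 21.1 CPM with doublets kept. The 7 macrophage markers summed to 1647 and 7025 CPM in monocyte-like cells. With 1 library per group neither the Ccl12 difference nor the part of these levels in it was tested. When each library was clustered alone the monocyte-like Ccl12 ratio was 1.17 (0.827–1.62).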

How the results depend on the processing

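No paired analysis was possible because each group has 1 library, and for the same reason no replicate could be left out. Over the 13 alternatives tried for each macrophage-like ratio, Ccl2 stayed between 0.735 and 0.861, Ccl7 between 0.798 and 0.931, Ccl12 between 0.680 and 0.815 and Ccl8 between 1.03 and 1.18, while Ccl6, Ccl9 and Ccl24 changed side. The 11 alternatives for Ccr1 in granulocyte-like cells gave 0.7999 to 0.897, and those for Ccr2 in monocyte-like cells 0.7499 to 1.11. The cause of each change was not tested. With doublets kept the ratios were 0.754 (Ccl2), 0.798 (Ccl7), 1.08 (Ccl8), 0.680 (Ccl12), 1.04 (Ccl6), 1.04 (Ccl9), 1.19 (Ccl24) and 1.11 (Ccr2). With the highest 8% of doublet scores removed they were 0.791 (Ccl2), 0.851 (Ccl7), 1.16 (Ccl8), 0.783 (Ccl12) and 1.05 (Ccr2). The looser cell filter gave 0.808 (Ccl7), 1.03 (Ccl8), 0.701 (Ccl12), 1.01 (Ccl6), 1.00 (Ccl9), 0.893 (Ccl24) and 0.790 (Ccr2). Resolution 2 gave 0.754 (Ccl2), 0.809 (Ccl7), 1.07 (Ccl8), 0.918 (Ccl6) and 1.05 (Ccr2). Each library clustered alone gave 0.861 (Ccl2), 0.915 (Ccl7), 1.18 (Ccl8), 0.782 (Ccl12), 1.03 (Ccl6), 1.02 (Ccl9) and 0.991 (Ccl24). The mean of cells' CPM gave 0.811 (Ccl7), 0.884 (Ccl6) and 0.920 (Ccl9). With the B-like level subtracted the ratios were 0.735 (Ccl2), 0.811 (Ccl7), 1.07 (Ccl8), 0.717 (Ccl12), 0.888 (Ccl6), 0.892 (Ccl9) and 0.982 (Ccl24). Without the top 5 cells they were 1.17 (Ccl8), 0.786 (Ccl12), 0.977 (Ccl9) and 1.14 (Ccl24). Thinning gave 0.813 (Ccl7), 1.10 (Ccl8), 0.815 (Ccl12), 0.864 (Ccl6), 0.895 (Ccl9), 0.988 (Ccl24) and 0.819 (Ccr1), and the scale of the median gene 0.7999 (Ccr1). Chosen after seeing the data, equal shares of the states gave 0.855 (Ccl2), 0.931 (Ccl7), 1.18 (Ccl8), 0.780 (Ccl12), 0.996 (Ccl6), 1.05 (Ccl9), 0.975 (Ccl24) and 0.897 (Ccr1). Without the interferon state, also added later, the ratios were 0.858 (Ccl2), 0.922 (Ccl7), 1.01 (Ccl6), 1.03 (Ccl9) and 1.20 (Ccl24). Without the hypoxic Arg1 state, added later too, they were 0.757 (Ccl2), 0.799 (Ccl7), 1.04 (Ccl8), 0.689 (Ccl12), 0.994 (Ccl6), 1.02 (Ccl9) and 0.975 (Ccl24), and with it counted with monocyte-like cells Ccr2 was 0.7499. Depth limits the rarest classes most, since Ccr2 in B-like cells rested on 5 and 45 UMIs.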
